A study of Mus musculus with 5 samples.

Results

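The 10 imprinted protein-coding genes linked to embryonic growth considered here, *Dlk1*, *Peg3*, *Peg10*, *Mest*, *Grb10*, *Plagl1*, *Ndn*, *Sgce*, *Nnat* and *Zim1*, were followed in the mouse heart at embryonic day 10.5. They were chosen by name, and each was measured by summing the sense tags that match its transcripts and those of no other gene. They are 10 of the 13489 genes with such tags in at least 1 library, and all 10 had tags. Tag-seq counts short cDNA tags, here the 17 bases after an NlaIII site (CATG), and a distinct tag sequence is called a tag type. Levels are given as TPM, the tags per 1000000 high quality tags of a library.

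The 5 libraries came from the atrioventricular canal (AVC), the outflow tract (OFT), the atria and the ventricles of wild type C57BL/6 embryos (C57BL/6J in the methods) and from the AVC of Twist1 Knockout embryos of the strain ICR, called the *Twist1* null AVC. *Twist1* encodes a basic helix-loop-helix factor of the endocardial cushion mesenchyme, the tissue that forms the valves. Embryos of several litters were pooled for a library, and each condition has 1 library, so no value below carries a spread between embryos. Every test compares libraries and not conditions, and in the comparison of the null with the wild-type AVC strain and genotype cannot be told apart.

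In an imprinted gene the copy inherited from 1 parent is expressed and the other is silenced by marks set in the germ line. *Grb10*, in most tissues, and *Zim1* are expressed from the maternal copy, and the other genes named above from the paternal copy. Paternally expressed genes often promote growth of the embryo and maternally expressed genes often restrain it. The tags do not separate the parental copies, so the levels are sums over both.

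The most abundant tag type of each gene is printed first, with some of the further tag types discussed below. A level here is the count of such sequences, and several results turn on single tags. CATG in capitals marks the NlaIII site, and sites are numbered from the 3′ end of the transcript. Positions are from matches to GENCODE M21 transcripts on GRCm38, made for this report.
*Dlk1*, site 1 of its longer transcript end, 3′ UTR, exon 6 of 6, chr12:109460583-109460603, plus strand: CATGataatgaataataataa
*Dlk1*, site 1 of a shorter end, coding sequence, exon 6 of 6, chr12:109460318-109460338, plus strand: CATGaccactttcaacaagga
*Peg3*, site 1, 3′ UTR, exon 9 of 9, chr7:6704236-6704256, minus strand: CATGacaagtgcgtagtgtca
*Peg10*, site 1, 3′ UTR, exon 2 of 2, chr6:4760008-4760028, plus strand: CATGgatgacattctagtgaa
*Peg10*, site 4, 3′ UTR, exon 2 of 2, chr6:4758794-4758814, plus strand: CATGtacacacggacatttgc
*Mest*, site 1, 3′ UTR, exon 13 of 13, chr6:30748145-30748165, plus strand: CATGtaagtgcggaatgaatg
*Mest*, site 4, 3′ UTR, exon 13 of 13, chr6:30747376-30747396, plus strand: CATGataatcctctcatttct
*Grb10*, site 1, 3′ UTR, exon 17 of 17, chr11:11930680-11930700, minus strand: CATGtaaccgttttcagggaa
*Grb10*, site 3, 3′ UTR, exon 17 of 17, chr11:11931773-11931793, minus strand: CATGcaaccgtgtttccacga
*Grb10*, site 11, 3′ UTR, exon 17 of 17, chr11:11933334-11933354, minus strand: CATGgctttttgatcggtacc
*Plagl1*, site 1, 3′ UTR, exon 6 of 6, chr10:13129783-13129803, plus strand: CATGtgatgttgttccaatgt
*Ndn*, site 3, 3′ UTR, exon 1 of 1, chr7:62349883-62349903, plus strand: CATGtatgcaaccccaccata
*Sgce*, site 1, 3′ UTR, exon 12 of 12, chr6:4674489-4674509, minus strand: CATGcccactgtgttgagaac
*Nnat*, site 1, 3′ UTR, exon 3 of 3, chr2:157562078-157562098, plus strand: CATGgggggagtggagggcgt
*Zim1*, site 2, 3′ UTR, exon 8 of 8, chr7:6671472-6671492, minus strand: CATGcacaagaaaaataaaaa

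The first base after CATG matters for what follows. The tags of *Mest* site 1, *Grb10* site 1, *Plagl1* site 1, *Ndn* site 3 and *Peg10* site 4 begin with T there. Tags with T first were 13.6% (AVC), 15.0% (OFT), 32.1% (atria), 22.2% (ventricles) and 32.4% (null) of all tags. Within 1709 genes with at least 100 tags of each class in the null and AVC libraries together, the log2 ratio of null to AVC of T-first tags exceeded that of their gene’s remaining tags by a median of 1.42. In the AVC against the atria and ventricles the median difference was -0.92 over 740 genes, and in the OFT against them -0.82 over 675 genes. The calls of the 10 genes that are lost or gained with T-first tags left out are therefore named below, as are the list counts that differ without these tags.

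Depth ran from 4223810 tags in the ventricles to 12977237 in the null, and the smallest listed count of 6 equals 0.462 TPM in the null and up to 1.42 TPM elsewhere. *Twist1* fell from 918 TPM in the AVC to 4.55 TPM in the null, where 59 tags of 1 tag type remained, and the bases deleted in the null allele were not given in the sources used here. Of the tissue markers, *Myl2*, a ventricular myosin light chain, was highest in the ventricles at 6196 TPM, against 55.5 in the atria, and *Isl1*, a factor of the second heart field, was highest in the OFT at 72.9 TPM. Of the other ventricular markers *Myl3* and *Irx3* were also highest in the ventricles, at 1039 and 4.26 TPM. *Irx4* was highest in the AVC, at 27.2 TPM against 2.84 in the ventricles. *Hey2* was highest in the OFT, at 84.1 against 46.4 TPM, and *Gja5* in the null, at 10.2 against 1.42. The venous and atrial factor *Nr2f2* was highest in the atria at 190.1 TPM, but the atrial genes *Myl7*, at 1088 TPM there against 4341 in the AVC, and *Nppa*, at 18.2 against 316, were not, and *Sln* was at or below 1.71 TPM in every library. Haemoglobin made up 21.5% of the tags in the atria, 4.67% in the ventricles, 2.73% in the null, and 0.242% and 0.307% in the AVC and OFT, although the methods describe puncturing the chambers and washing out blood. The 12 cushion mesenchyme markers summed to 3226 TPM (AVC), 3956 TPM (OFT), 229 TPM (atria), 234 TPM (ventricles) and 1026 TPM (null). In pooled tissue, fewer cells of a type and less RNA per cell cannot be told apart.

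**Figure D1:**
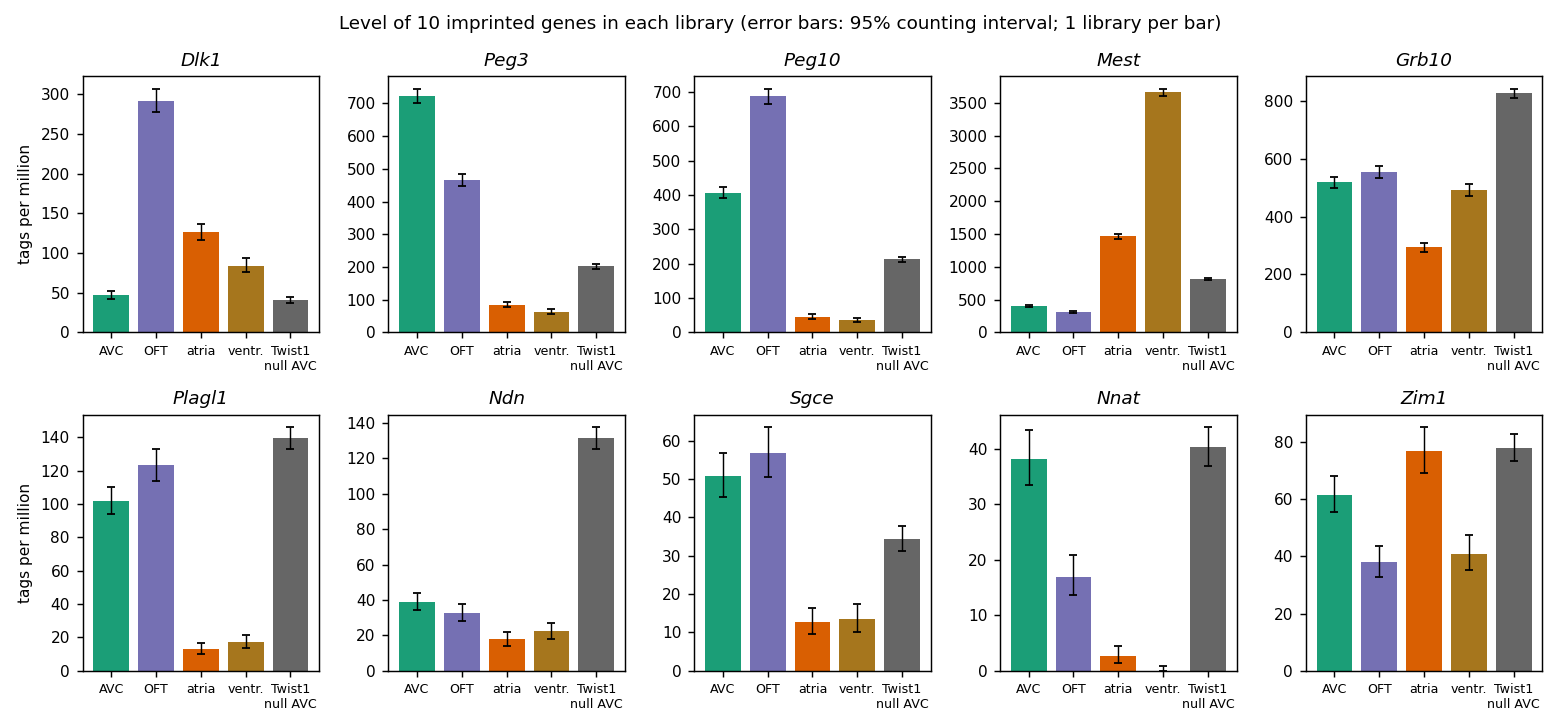
Level of each gene in TPM (vertical axis, linear, from 0) in the AVC, OFT, atria, ventricles and *Twist1* null AVC, with 1 library per bar and error bars for the 95% counting interval only. *Peg3*, *Peg10*, *Plagl1*, *Sgce* and *Nnat* stand low in both chambers, *Mest* stands highest there, and *Dlk1* is highest in the OFT at 292 TPM.

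Which genes differ between the cushion regions and the chambers was asked by comparing the AVC, and separately the OFT, with the summed atria and ventricles. Of the 10 imprinted genes 5 were higher in the AVC, *Peg3*, *Peg10*, *Plagl1*, *Sgce* and *Nnat*, and 1, *Mest*, was lower, at a Benjamini-Hochberg adjusted p under 0.05 in edgeR's exact test with a dispersion of 0.12. Over all 12506 genes tested 35.6% were called higher and 5.53% lower, with a median log2 ratio of 1.11, beside 1.46 for the 10 genes. In the OFT the same 5 genes were called higher and *Mest* lower, beside 34.2% and 6.77% of 12453 genes and medians of 1.02 for all genes and 1.79 for the 10. The comparisons share the chamber libraries. TMM normalization moved the median of all genes by -0.95 in the AVC and -0.86 in the OFT comparison. With it *Peg3*, *Peg10* and *Nnat* were called higher and *Mest* and *Dlk1* lower in the AVC, beside 19.4% and 11.9% of all genes. *Peg10*, *Plagl1* and *Nnat* were called higher and *Mest* lower in the OFT, beside 20.1% and 12.1%.

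The zinc finger genes come first. *Peg3*, which encodes a DNA-binding protein with many zinc fingers, stood at 724 TPM (AVC), 466 TPM (OFT), 85.1 TPM (atria), 63.7 TPM (ventricles) and 203 TPM (null). The counting intervals of these levels did not overlap, so the AVC was highest and both chambers were low. *Peg3* was 9.66-fold higher in the AVC than in the summed chambers (log2 3.27, 95% counting interval 3.15 to 3.39, adjusted exact p = 0.000285). In the OFT it was 6.22-fold higher (log2 2.64, interval 2.51 to 2.76, adjusted exact p = 0.00299). TMM normalization left the AVC call at log2 2.32 and put the OFT value just outside the threshold, at log2 1.78 with an adjusted exact p of 0.0503. A correction for GC content ended the OFT call and left the AVC call.

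The signal of *Peg3* came from 14 tag types, and site 1 held 82.3% of its tags over the 5 libraries. Its site 1 tag was read at 599 TPM (AVC), 377 TPM (OFT), 81.9 TPM (atria), 59.0 TPM (ventricles) and 161 TPM (null). Site 11 gave 53.7 TPM (AVC), 37.0 TPM (OFT) and 1.66 TPM (ventricles) and was not listed in the atria. The upstream tag thus had the same high and low regions as the 3′-most one.

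*Plagl1* encodes a zinc finger factor that can arrest the cell cycle and that acts on other imprinted genes. It stood at 102 TPM (AVC), 123 TPM (OFT), 13.1 TPM (atria), 17.0 TPM (ventricles) and 140 TPM (null), so the chambers were low and their intervals overlapped. *Plagl1* was 6.80-fold higher in the AVC (log2 2.77, interval 2.49 to 3.05, adjusted exact p = 0.00215) and 8.24-fold higher in the OFT (log2 3.04, interval 2.77 to 3.32, adjusted exact p = 0.000826). With TMM normalization the AVC value was log2 1.81 with an adjusted exact p of 0.0507, and the OFT call held at log2 2.19. The correction for GC content likewise ended the AVC call and left the OFT call. With T-first tags left out, few tags remained, with 8.39 TPM in the AVC and none in the atria, and both calls held at log2 3.39 and 3.78.

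*Zim1*, a zinc finger gene beside *Peg3* on chromosome 7 with 7442 bases between them, did not follow its neighbour. It stood at 61.6 TPM (AVC), 38.0 TPM (OFT), 76.9 TPM (atria), 41.0 TPM (ventricles) and 78.1 TPM (null). These levels spanned 2.06-fold in all, and the intervals of the null and atria overlapped, as did those of the ventricles and OFT. The log2 ratio was 0.04 in the AVC (adjusted exact p = 0.981) and -0.66 in the OFT (adjusted exact p = 0.492), neither of them called, and under TMM normalization they were -0.91 and -1.51.

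*Peg10*, a gene derived from a retrotransposon and required for the placenta, stood at 406 TPM (AVC), 687 TPM (OFT), 45.6 TPM (atria), 35.7 TPM (ventricles) and 212 TPM (null). The OFT was highest, and the intervals of both chambers overlapped. *Peg10* was 9.93-fold higher in the AVC (log2 3.31, interval 3.15 to 3.47, adjusted exact p = 0.000253) and 16.8-fold higher in the OFT (log2 4.07, interval 3.91 to 4.23, adjusted exact p = 1.17e-05). Under TMM normalization the log2 ratios were 2.36 and 3.21, and both were called. In the atria and ventricles only its site 1 tag passed the limit of more than 5 tags, while the AVC and OFT each had 9 tag types.

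*Sgce* encodes epsilon-sarcoglycan, a membrane protein of a complex that ties the cytoskeleton to the matrix, and begins 99 bases from *Peg10* on chromosome 6, on the other strand. It stood at 50.7 TPM (AVC), 56.8 TPM (OFT), 12.6 TPM (atria), 13.5 TPM (ventricles) and 34.4 TPM (null). The AVC and OFT overlapped each other, the chambers overlapped each other, and the null lay between. *Sgce* was 3.89-fold higher in the AVC (log2 1.96, interval 1.65 to 2.28, adjusted exact p = 0.0296) and 4.35-fold higher in the OFT (log2 2.12, interval 1.81 to 2.44, adjusted exact p = 0.0184). Neither was called under TMM normalization, where the log2 ratios were 1.01 and 1.26 beside medians of all genes of 0.15 and 0.16. With T-first tags left out, the AVC value was log2 1.71 and no longer called (adjusted exact p = 0.0540), and the OFT call held at 1.89. *Sgce* has no T-first tag, so its ratio moved through the library totals alone. A correction for GC content also ended both calls.

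*Nnat*, which encodes a small membrane proteolipid of the endoplasmic reticulum, stood at 38.2 TPM (AVC), 16.9 TPM (OFT), 2.57 TPM (atria) and 40.3 TPM (null), and no tag type of it was listed in the ventricles. The atrial value rests on 12 tags of 1 tag type. *Nnat* was 28.3-fold higher in the AVC than in the summed chambers (log2 4.82, interval 3.99 to 5.80, adjusted exact p = 4.54e-06). In the OFT it was 12.5-fold higher (log2 3.65, interval 2.77 to 4.65, adjusted exact p = 0.000451). Both of these calls held under TMM normalization, at log2 3.87 and 2.79.

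*Mest*, which encodes a protein of the alpha/beta hydrolase fold, ran the other way. It stood at 399.8 TPM (AVC), 317 TPM (OFT), 1465 TPM (atria), 3658 TPM (ventricles) and 808 TPM (null), and no neighbouring intervals overlapped. *Mest* was 6.27-fold lower in the AVC than in the summed chambers (log2 -2.65, interval -2.71 to -2.59, adjusted exact p = 0.00269). In the OFT it was 7.91-fold lower (log2 -2.98, interval -3.06 to -2.91, adjusted exact p = 0.000844).

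The size of that difference depended on tag type. The 3 *Mest* sites nearest the 3′ end all give T-first tags, and those sites lie antisense to the overlapping gene *Copg2*. T-first tags of *Mest* summed to 324 TPM (AVC), 259.5 TPM (OFT), 1422 TPM (atria), 3470.3 TPM (ventricles) and 727 TPM (null). The other tags, chiefly site 4, summed to 75.6, 57.3, 43.5, 187.5 and 80.8 TPM in the same order. The ventricles were thus highest in both classes, while the atria were second in the first class and lowest in the second. With T-first tags left out, the log2 ratio to the chambers was -0.82 in the AVC (adjusted exact p = 0.362) and -1.19 in the OFT (adjusted exact p = 0.172), and neither was called. With TMM normalization as well, a choice added after seeing the data, they were -1.67 (adjusted exact p = 0.0649) and -1.93, of which only the OFT was called.

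**Figure D2:**
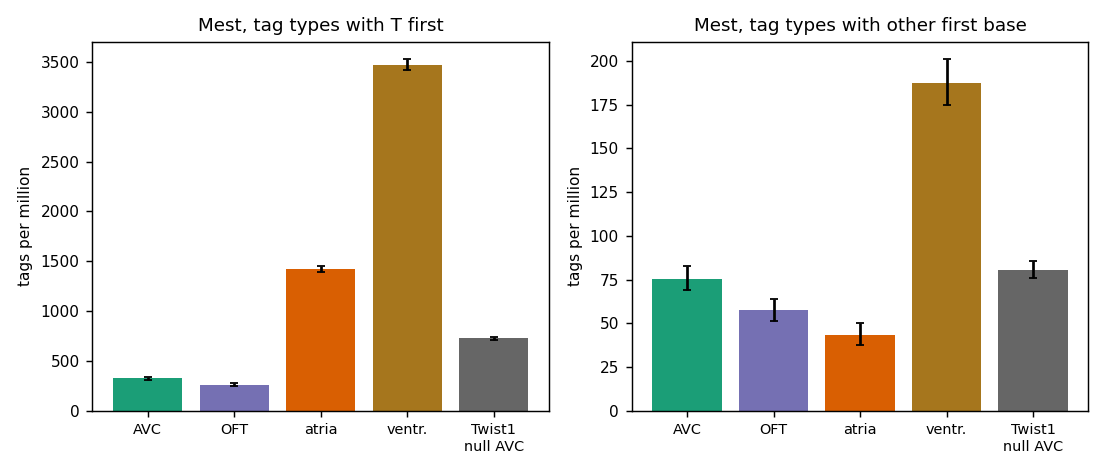
*Mest* level in TPM (vertical axes, linear, from 0, with separate scales) in the 5 libraries, split into tag types with T as the first base after the NlaIII site (left) and all others (right), with 1 library per bar and 95% counting intervals. The ventricles are highest in both panels, and the atria move from second place at 1422 TPM to the lowest at 43.5 TPM.

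*Dlk1* encodes a transmembrane protein related to the Notch ligands, which holds precursor cells undifferentiated. It stood at 46.9 TPM (AVC), 292 TPM (OFT), 126 TPM (atria), 84.3 TPM (ventricles) and 40.6 TPM (null). The OFT stood above all others, and the AVC and null overlapped. Against the chambers *Dlk1* was at log2 -1.18 in the AVC (adjusted exact p = 0.179) and 1.46 in the OFT (adjusted exact p = 0.0961), neither of them called. Under TMM normalization the AVC value was -2.13 and was called lower (adjusted exact p = 0.0201), and the OFT value was 0.60 (adjusted exact p = 0.552). With the correction for GC content the OFT value was called higher.

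*Grb10*, an adaptor protein that binds and inhibits the insulin and IGF1 receptors, was the most even of the genes outside *Zim1*. It stood at 517.5 TPM (AVC), 554 TPM (OFT), 294 TPM (atria), 492 TPM (ventricles) and 826 TPM (null). The AVC overlapped both the OFT and the ventricles. Its log2 ratio to the chambers, 0.42 for the AVC and 0.51 for the OFT, turned to -0.54 and -0.34 under TMM normalization, none of them called.

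*Ndn* encodes necdin, a MAGE family protein that restrains proliferation. It stood at 38.8 TPM (AVC), 32.7 TPM (OFT), 17.8 TPM (atria), 22.3 TPM (ventricles) and 131 TPM (null). The null was highest, and the wild-type libraries fell into a higher pair, the AVC and OFT, and a lower pair, the chambers. The log2 ratios to the chambers were 0.96 and 0.71, not called, and all 4 of its tag types begin with T, so no value is left without them. Its 3′-most tag is nearly all adenine, matches 53 genes and was left out.

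Values of marker lists that also differed are given here once for all of the 10 genes. In each region 7 of 12 cardiomyocyte markers were called higher and none lower, beside 35.6% (AVC) and 34.2% (OFT) of all genes. With TMM normalization 5 (AVC) and 4 (OFT) were, and without T-first tags 8 in each. Of 10 endothelial and endocardial markers 4 were called higher in each region and 1 lower in the AVC. With TMM normalization 2 were higher and 2 lower in each. Without T-first tags 3 of 9 were higher in each, and 1 lower in the AVC. All 12 cushion mesenchyme markers were called higher in the AVC than in the chambers, and 11 of 12 for the OFT, all but *Postn* (adjusted exact p = 0.0530), and *Msx2* and *Prrx1* were at 0 in both chambers. Markers singled out from these lists here and below were named after their values were seen. With TMM normalization 9 of 12 were called in the AVC, without *Postn*, *Col1a1* and *Prrx2*, and 10 of 12 in the OFT, without *Postn* and *Pdgfra*. With T-first tags left out 10 of the 11 tested were called in each, all but *Postn*. All 8 erythroid genes tested were called lower in both regions, also with TMM normalization, as were all 7 that could be tested without T-first tags. Of 6 epicardial markers tested for the OFT 1 was called higher and 3 lower, beside 6.77% lower of all genes. With TMM normalization 1 was higher and 5 lower, and without T-first tags 1 and 2 of 5. For the AVC 1 of 7 was higher and none lower, and 1 lower with either change. Of 6 pharyngeal and smooth muscle genes 4 were higher in the OFT and none in the AVC. With TMM normalization 3 and none were, and without T-first tags 5 and 2. With the atria alone, the ventricles alone, or both entered as separate libraries, each call of the 10 genes in these comparisons held, and *Dlk1* in the OFT was called higher against the ventricles alone and with both entered separately. With haemoglobin left out of the totals *Sgce* in the AVC was no longer called. The part of cell composition in these values was not tested.

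**Figure D3:**
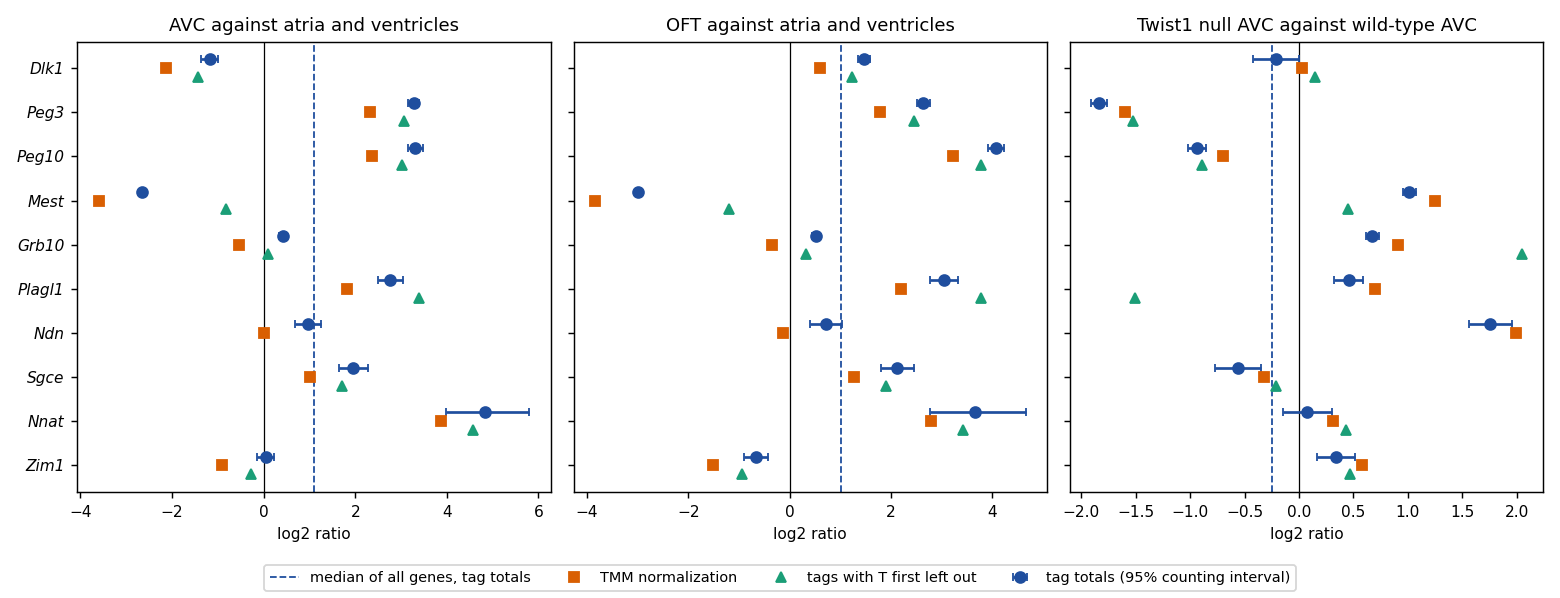
Log2 ratios (horizontal axes) of the 10 genes for the AVC and the OFT against the summed atria and ventricles and for the *Twist1* null AVC against the wild-type AVC, from tag totals (circles, with 95% counting intervals), with TMM normalization (squares) and without T-first tags (triangles, none for *Ndn*). Dashed lines mark the median of all genes from tag totals, at 1.11, 1.02 and -0.25, and *Mest*, *Grb10* and *Plagl1* are the genes whose triangles lie farthest from their circles.

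Between the 2 cushion regions 1 of the 10 genes was called. *Dlk1* was 6.23-fold higher in the OFT than in the AVC (log2 2.64, interval 2.46 to 2.83, adjusted exact p = 0.0302), where 1.24% of 12544 genes were called higher and 1.88% lower. Both leading tags of *Dlk1* were higher in the OFT, with the 3′ UTR tag at 260.3 against 38.7 TPM and the coding tag at 30.2 against 8.23. The call held without T-first tags, of which *Dlk1* has none, and was lost when genes under 50 tags were dropped from the test. The other 9 genes ranged from a log2 ratio of -1.18 for *Nnat* to 0.76 for *Peg10*, none of them called. Of 7 tested muscle and mesodermal genes of the pharyngeal and smooth muscle list, *Isl1* and *Rgs5* were called higher in the OFT. The list summed to 907 TPM (OFT), 329 TPM (AVC), 235 TPM (atria), 327 TPM (ventricles) and 924 TPM (null). *Dlk1* stood at 40.6 TPM in the null. Of these sums *Acta2* gave 399 TPM (OFT), 120 TPM (AVC) and 716 TPM (null). The log2 ratio of *Acta2* for the OFT against the AVC was 1.74, and 0.56 without T-first tags, neither of them called. Of 5 atrial markers 3 were called lower in the OFT than in the AVC, also with TMM normalization, and 3 of 4 without T-first tags. Of 7 epicardial markers 1 was called lower, but none with TMM normalization. Of 8 erythroid genes 1 was called higher, but none without T-first tags. No marker of the remaining lists was called. The part of the list genes in the *Dlk1* value was not tested.

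Between the chambers none of the 10 genes was called in edgeR's exact test, beside 6.27% of 10707 genes. *Nnat* alone had an unadjusted exact p under 0.05, which 20.1% of all genes had. It was listed at 12 tags in the atria and none in the ventricles, a ratio of at least 2.17-fold lower when 5 tags are allowed for the missing type (adjusted exact p = 0.0672). *Mest* was 2.50-fold higher in the ventricles (log2 1.32, interval 1.28 to 1.36, adjusted exact p = 0.288), and its tags other than T-first gave log2 1.91 (adjusted exact p = 0.0986). The remaining 8 genes lay between a log2 ratio of -0.91 for *Zim1* and 0.74 for *Grb10*.

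The *Twist1* null AVC was compared with the wild-type AVC, which differed from it in strain as well as genotype. In this comparison none of the 10 genes passed the adjusted threshold in edgeR's exact test, beside 9.00% of 12966 genes, and the median log2 ratio was 0.21 for the 10 and -0.25 for all. At an unadjusted exact p under 0.05, met by 24.6% of all genes, *Peg3* was lower and *Ndn* higher. The wild-type AVC also serves as a comparator for the OFT above. The 12 cushion mesenchyme markers summed to 1026 TPM in the null against 3226 in the AVC with 4 of 12 called lower (*Postn*, *Sox9*, *Col1a1* and *Col3a1*) and none at 0. With TMM normalization 2 of 12 were called lower, *Col1a1* and *Col3a1*, and with T-first tags left out 2 of 12, *Sox9* and *Col1a1*. The erythroid genes summed to 27379 against 2426 TPM with 5 of 8 called higher (*Hbb-y*, *Hbb-bh1*, *Hba-x*, *Alas2* and *Slc4a1*, the last at 0 in the AVC), the same 5 with TMM normalization and all of them but *Slc4a1* without T-first tags. Over all genes 5.06% were called higher and 3.94% lower. Of other lists 1 of 10 endothelial and endocardial, 1 of 8 epicardial and 1 of 6 pharyngeal and smooth muscle genes were called higher. None of these was called lower, but without T-first tags 1 epicardial gene was. Of 12 cardiomyocyte markers 1 was called lower and none higher, and 1 in each direction with TMM normalization or without T-first tags. The part of these cells in the values below was not tested.

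*Peg3* was 3.57-fold lower in the null (203 against 724 TPM, log2 -1.84, interval -1.91 to -1.77, exact p = 0.0132, adjusted exact p = 0.0952). Its site 1 tag, with A first, stood at 161 TPM against 599, its site 2 tag at 16.3 against 35.2 and its site 11 tag at 12.9 against 53.7. These 3 tags were all lower, while the T-first tags of *Peg3* together were at 8.63 TPM in the null and 10.4 in the AVC. Without T-first tags the log2 ratio was -1.53 (adjusted exact p = 0.171).

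*Ndn* was 3.38-fold higher in the null (131 against 38.8 TPM, log2 1.76, interval 1.56 to 1.96, exact p = 0.0184, adjusted exact p = 0.112). Its site 3 tag was at 123 TPM in the null and 36.9 in the AVC. Every *Ndn* tag begins with T, the class that was higher in the null by a median of 1.42 within genes.

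*Peg10* and *Grb10* differed among their own tags. The site 1 tag of *Peg10* was lower in the null, at 143 against 365 TPM. Its T-first tags at sites 4 and 6 were higher, at 31.0 against 8.07 TPM and 15.3 against 4.11, and site 2 stood at 21.6 against 20.1. The share of *Peg10* tags at the 3′-most site was 67.4% in the null, against 89.9% (AVC) and 90.3% (OFT). Over all tags *Peg10* was at log2 -0.94 (interval -1.02 to -0.86, adjusted exact p = 0.435).

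For *Grb10* the T-first site 1 tag differed less than those at sites 2, 3 and 11, with 480.0 TPM in the null and 411 in the AVC. The tags without T first differed more, with 169.8 against 68.6 TPM at site 2, 103 against 20.7 at site 3 and 52.1 against 5.76 at site 11. The share at the 3′-most site was 58.1% in the null and between 76.4% and 79.9% in the wild-type libraries. Within the 2819 genes with enough tags, the 3′-most tags had a lower log2 ratio of null to AVC than the other tags by a median of 0.66. Over all tags *Grb10* was at log2 0.67 (interval 0.62 to 0.73, adjusted exact p = 0.598), and without T-first tags at 2.05 (adjusted exact p = 0.0588). With TMM normalization as well, a choice added after seeing the data, the value was 2.28 and was called (adjusted exact p = 0.0331).

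**Figure D4:**
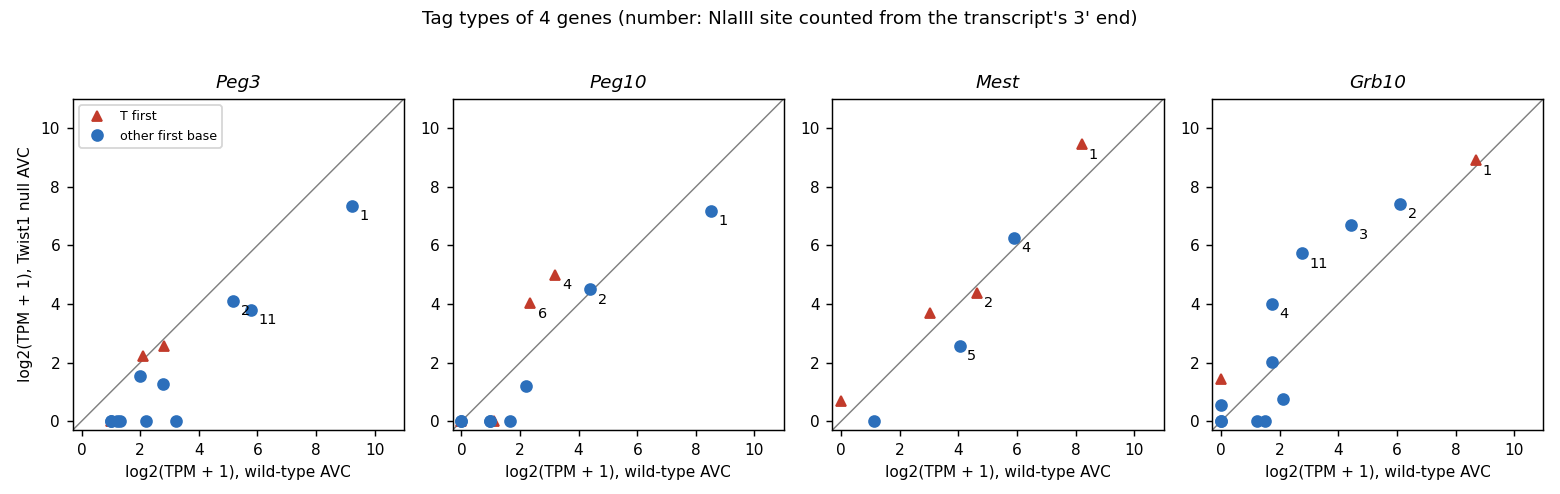
Each tag type of *Peg3*, *Peg10*, *Mest* and *Grb10* in the wild-type AVC (horizontal axis) and the *Twist1* null AVC (vertical axis), as log2(TPM + 1), with triangles for T-first tags, circles for the others, numbers for the NlaIII site counted from the 3′ end and a line of equality. All abundant *Peg3* tags lie below the line, the T-first sites 4 and 6 of *Peg10* lie above it while its site 1 lies below, and sites 2, 3, 4 and 11 of *Grb10* lie above it.

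*Mest* was at 808 TPM in the null and 399.8 in the AVC (log2 1.02, interval 0.95 to 1.08, adjusted exact p = 0.394). Its tags other than T-first stood at 80.8 and 75.6 TPM, so the higher level came from T-first tags. *Plagl1* turned sign between the classes, with T-first tags at 137 TPM in the null and 93.3 in the AVC and the other tags at 2.31 and 8.39. Its log2 ratio was 0.46 over all tags (adjusted exact p = 0.745) and -1.51 without T-first tags (adjusted exact p = 0.245).

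The remaining genes lay closer to equality. *Sgce* was at log2 -0.56 (interval -0.77 to -0.35, adjusted exact p = 0.681), *Zim1* at 0.34 (interval 0.17 to 0.52), *Dlk1* at -0.21 (interval -0.42 to 0.0049) and *Nnat* at 0.08 (interval -0.15 to 0.31). These intervals cover counting only and do not show that the genes were equal in the 2 tissues. *Zim1* had a T-first tag at site 3 with 86 tags in the null and none listed elsewhere.

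The genes of most similar pattern were found by the root mean square difference of centred log2(TPM + 1) over the 5 libraries, among 7021 genes reaching 20 TPM. The nearest was *Susd6* for *Peg3* (0.13), *Rplp0* for *Peg10* (0.11), *Atp5g3* for *Mest* (0.13), *Vcp* for *Grb10* (0.04), *Uck2* for *Plagl1* (0.05), *Baz2a* for *Ndn* (0.09), *Clptm1* for *Sgce* (0.03) and *Stx3* for *Dlk1* (0.48). *Nnat*, with no tag in the ventricles, was left out. Of these 8 genes *Dlk1* thus had the least close match. None of the nearest genes named was another of the 10, and 5 libraries with unequal tag composition leave these as descriptions.

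A list of 61 other imprinted genes was read the same way. Tags were found for 50. In the AVC against the chambers 14 of 46 tested were called higher and 1 lower, beside 35.6% and 5.53% of all genes. The median log2 ratio was 1.04 beside 1.11 for all genes. For the OFT the counts were 17 higher and 3 lower of 45, beside 34.2% and 6.77%, with a median of 1.11 beside 1.02. The genes called lower, named after their values were seen, were *Calcr* in the AVC and *Calcr*, *Mkrn3* and *Tspan32* in the OFT. With TMM normalization the counts were 10 higher and 8 lower for the AVC, beside 19.4% and 11.9% of all genes. For the OFT they were 13 and 5, beside 20.1% and 12.1%. With T-first tags left out the counts were 14 higher and 3 lower of 37 for the AVC, and 14 and 2 of 38 for the OFT. The shares of all genes without these tags are not reported here. The genes called lower were then *Cdkn1c*, *Mcts2* and *Tspan32* in the AVC and *Mcts2* and *Tspan32* in the OFT.

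The 5 most abundant of that list fell into separate patterns. *Gnas*, which encodes the stimulatory G protein alpha subunit, stood at 2058 TPM (AVC), 1729 TPM (OFT), 136 TPM (atria), 147 TPM (ventricles) and 666 TPM (null), the same order of regions as *Peg3* but for the chambers. *Meg3*, a noncoding RNA of the *Dlk1* cluster expressed from the maternal copy, stood at 339, 1065, 14.8, 14.2 and 270.5 TPM, and like *Dlk1* was highest in the OFT, but it was low in the chambers. *H19*, the maternally expressed noncoding RNA beside *Igf2*, stood at 5213, 7249, 2698, 2352 and 3346 TPM.

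*Igf2*, the growth factor whose signalling *Grb10* can restrain, stood at 1207 TPM (AVC), 1591 TPM (OFT), 2323 TPM (atria), 2332 TPM (ventricles) and 3033 TPM (null). *Cdkn1c*, a cyclin-dependent kinase inhibitor, stood at 392, 774, 832, 1179 and 487 TPM. Of these 5 genes *Gnas* and *Meg3* were called higher in both cushion regions, with log2 ratios of 3.87 and 4.54 in the AVC (adjusted exact p = 2.62e-05 and 2.04e-06). *Igf2* and *Cdkn1c* in the AVC were not called from tag totals, and both were called lower under TMM normalization, at log2 -1.90 and -2.30. *Cdkn1c* was also called lower from tag totals with T-first tags left out (log2 -1.99, adjusted exact p = 0.0224).

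In the null 4 of 49 genes of that list were called higher and 1 lower, beside 5.06% and 3.94% of all genes, and they are named here after their values were seen. *Zdbf2* stood at 39.0 TPM in the null and 7.90 in the AVC (log2 2.30, adjusted exact p = 0.0389), and *Zrsr1*, *Calcr* and *Kcnq1* were listed at 5.01, 2.00 and 2.47 TPM in the null and not in the AVC. *Dcn*, which encodes the matrix proteoglycan decorin, stood at 4.70 TPM in the null and 60.4 in the AVC (log2 -3.68, adjusted exact p = 0.00111). With T-first tags left out 1 of 41 was called higher and 1 lower. These were *Zdbf2*, for which no such tag was listed in the AVC, and *Dcn* at log2 -3.33, while *Zrsr1*, *Calcr* and *Kcnq1* had no tags left to test. *Igf2* was at log2 1.33 (adjusted exact p = 0.238) and *Gnas* at -1.63 (adjusted exact p = 0.138), neither of them called.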

How the data were processed

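Tag-seq counts of 5 libraries were used as deposited. The authors cut oligo(dT) cDNA with NlaIII, sequenced the tags and listed the count of each tag type with more than 5 tags, without normalization. Their mapping to genes, their removal of tags 1 base from abundant tags and their genome filter are described in the methods and are not applied here. Their notes name the build mm9.

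Virtual tags were taken at every NlaIII site of 33363 RefSeq-linked GENCODE M21 transcripts (GRCm38) with 20 adenines added, using Python 3.11.15, numpy 2.4.6, pandas 2.3.3, scipy 1.17.1 and matplotlib. Of 315529 virtual tags 308986 belong to 1 gene, and between 70.7% and 74.6% of the tags of a library matched 1 gene. The genome was not searched. TPM are tags per 1000000 of all tags in a file, and totals were 6075421 (AVC), 5267618 (OFT), 4666514 (atria), 4223810 (ventricles) and 12977237 (null).

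Libraries were compared with edgeR 4.0.16 (R 4.3.3), whose exactTest was run two-sided with the dispersion fixed at 0.12, as in the study, and Benjamini-Hochberg adjustment over all genes with a tag on either side. A call is an adjusted p under 0.05. Counting intervals are 95% (Poisson for levels, exact binomial for ratios) and cover counting error only. A gene without tags takes 5 tags for each missing tag type. The scripts were tested on simulated data. Alternatives changed the scaling (TMM, DESeq2 1.42.0 size factors, totals without haemoglobin), dispersion, p adjustment, tag limits, sites, transcripts, error tags, depth, T-first tags, GC content and the comparator.

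The 10 genes and all lists were chosen with earlier results of these data known. Also named are *Twist1*, the 5 other imprinted genes of largest summed TPM, and for each of the 10 genes with tags in every library the nearest gene in pattern. The gene nearest in pattern to *Zim1* is not reported here.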

Additional observations from a re-analysis of the deposited data

Results flagged for a closer look

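A *Dlk1* tag type that is not in the reference was read in the *Twist1* null AVC alone. It differs from the coding tag printed in the report by T6C, counted from 1 at the first base after CATG, and its sequence is CATGaccacCttcaacaagga, with the changed base in capitals. It had 43 tags in the null and none listed in the 4 wild-type libraries, while the reference tag had 19 (null), 50 (AVC), 159 (OFT), 10 (atria) and 9 (ventricles). Adding the 43 tags would move *Dlk1* in the null from 40.6 to 43.9 TPM and its log2 ratio to the AVC from -0.21 to -0.09. The null library is the only one of the strain ICR, so strain, genotype and library cannot be told apart.

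A *Nnat* tag type with C14G had 7 tags in the null and none in the others, beside 21 tags of its reference tag in the null and 15 in the AVC.

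Antisense tags, which the gene levels leave out, were above every wild-type library in the null for 5 genes, beyond the counting intervals. *Grb10* had 446 TPM of antisense tags in the null and between 41.4 and 132 TPM in the wild-type libraries, which is 54.0% of its sense level in the null and at most 23.9% elsewhere. Its most abundant antisense tags begin with T, at 242 and 147 TPM in the null against 62.2 and 46.6 in the AVC. A further tag, with C first, stood at 50.8 TPM in the null and 3.46 in the AVC. *Peg10* had 75.8 TPM against at most 51.1, *Plagl1* 24.3 against at most 6.83, *Ndn* 14.7 against at most 8.72 and *Zim1* 19.8 against at most 11.8. Over all genes antisense-only tags made up 9.20% of the tags in the null and between 3.09% and 6.74% elsewhere. Whether the excess of these genes goes with that of the library, or with the higher share of T-first tags in the null, was not tested.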

How the results depend on the processing

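No paired analysis was possible because each condition has 1 library. Over all genes, a dispersion of 0.05 gave 7772 calls in the AVC, 965 in the OFT against the AVC, 1788 between chambers and 4119 in the null, and 0.4 gave 634, 780 in the OFT, 0, 0 and 0. Unadjusted p gave 1578 for the OFT against the AVC, 2157 between chambers and 3189 in the null. At least 50 tags per gene gave 3232 in the OFT, 47, 41 and 599. More than 10 tags per tag type gave 1062, 1838 and 1953, and the GC offset 1057 for the OFT against the AVC and 1747 between chambers. The counts with the stated design were 5139, 5096, 392, 671 and 1167.

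Of the 789 values recomputed for the 10 genes, 701 kept direction and side of the threshold, 35 lost a call, 19 gained one and 34 changed sign, all 34 for values that were not called. Dispersion 0.4 removed all 13 calls of these genes, so each call depends on the fixed dispersion, which 1 library per condition cannot check. *Peg3* and *Peg10* in the AVC and *Peg10* and *Plagl1* in the OFT lost their call only there, as did *Nnat* in the AVC, while *Nnat* in the OFT also lost it with the GC offset. The share of calls that were higher was 86.5% in the AVC, and 62.0, 61.0 and 48.2% with TMM, DESeq2 size factors and the GC offset. In the OFT it was 83.5%, and 62.3, 61.6 and 49.7%. Between chambers it was 55.3%, and 40.2, 40.6 and 44.8%, and 41.0% without haemoglobin. In the null it was 56.2%, and 67.1 and 66.8% with TMM and DESeq2 size factors. For the OFT against the AVC it was 39.8%, and 51.8% with the GC offset.

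Values that changed sign were these, in the order TMM, DESeq2 size factors, GC offset. *Grb10* in the AVC was -0.54, -0.57 and -1.05, and -0.75 with T-first tags left out and TMM. *Grb10* in the OFT was -0.34, -0.36 and -0.77, and -0.42 with that pair of changes. *Ndn* in the OFT was -0.14, -0.16 and -0.63, and in the AVC -0.025 (DESeq2) and -0.58 (GC). *Zim1* in the AVC was -0.91, -0.95 and -0.54, -0.17 without haemoglobin, -0.28 without T-first tags, -1.13 with that and TMM, and -0.32 against the atria alone. Between chambers *Sgce* was -0.23 and -0.22, -0.19 without haemoglobin, -0.10 without T-first tags and -0.16 with that and TMM, and *Plagl1* was -0.040 (GC). In the null *Dlk1* was 0.030 and 0.025, 0.14 without T-first tags and 0.38 with that and TMM. There *Plagl1* was -1.51 without T-first tags and -1.27 with that and TMM, *Sgce* 0.028 with that pair of changes, and *Zim1* -0.084 (GC). The cause was not tested.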
